A study of Mus musculus with 4 samples.

Results

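RNA helicases and splicing factors were compared between resting and anergic cells of a mouse Th1 T cell clone, anergy being a state in which T cells respond poorly to their stimulus. The genes were chosen by name: those whose single symbol in the platform annotation begins with Ddx or Dhx and a digit, Srsf and a digit, Snrp, Sf3 or Hnrnp, leaving out Ddx3x and Ddx3y. This gave 70 genes on 100 probe sets, of 8251 genes that had a probe set of 1 symbol. They comprised 29 helicases (22 Ddx and 7 Dhx genes), 9 SR protein genes, 8 snRNP genes, 8 genes of the SF3 complex and 16 hnRNP genes. Another 7 probe sets that carried such a symbol beside others were left out.

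The control group was 2 arrays of the normal, resting clone, and the anergic group was 2 arrays of the clone exposed to anti-CD3 antibody fixed to a plate. A clone descends from a single T cell, so both groups stand for 1 kind of T cell kept in culture, and the labels give no strain, clone name, length of treatment or rest before harvest. Nor do they say whether replicate arrays stand for separate cultures. A p-value here is therefore set against array-to-array spread that may be technical. The values are linear intensities that had been brought to a common scale before deposit, with 2%-trimmed means of 500.3 on every array.

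Most protein-coding transcripts of mammals are spliced by the spliceosome, which is built from small nuclear ribonucleoproteins (snRNPs). Each snRNP is an RNA with a ring of Sm or Sm-like proteins and its own specific proteins. The SF3 complex is part of the U2 snRNP and holds it at the branch point of the intron. SR proteins bind exons and mostly promote the use of splice sites, hnRNP proteins bind nascent RNA and often oppose it, and DEAD-box and DEAH-box helicases spend ATP to remodel RNA at each step, in ribosome assembly, and in the export, translation and decay of mRNA. In T cells, alternative splicing is known to change upon activation, with the exons of the phosphatase CD45 as the textbook case.

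Nearly all of these genes were measured above the filter on low values, and none passed the test. The filter kept probe sets with a mean log2 intensity above the 40th percentile, and 67 of the 70 genes (95.7%) passed it, against 5583 of 8251 genes (67.7%) on the array as a whole. In limma with Benjamini-Hochberg adjustment over the 5583 genes, 0 of the 67 were called higher, where 1.33% of all genes were, and 0 were called lower, where 0.842% of all genes were. At an unadjusted p under 0.05, 8 of the 67 (11.9%) were lower in anergic cells, against 6.39% of all genes, and 0 were higher, against 6.32% of all genes. These 8 were Snrpg, Srsf3, Snrpd3, Ddx18, Snrpa1, Snrpb, Hnrnpll and Sf3a3. The lowest adjusted p among the 67 was 0.0664 and the highest 0.995.

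By sign, the genes leaned to lower values in anergic cells. The log2 difference, anergic minus control, was negative in 53 of the 67 (79.1%), against 58.1% of all genes tested, and its median was -0.232 against -0.085. Both anergic arrays lay below both control arrays for 31 of the 67 (46.3%), against 24.0% of all genes, and above them for 1, Ddx6, against 17.2% of all genes. Differences under 0.5 on the log2 scale in either direction made up 52 of the 67, a share near that of all genes (4138 of 5583), and 1, Srsf3, was of at least 1. The 95% interval of the difference lay inside a 2-fold change in either direction for 36 of the 67 (53.7%), against 41.6% of all genes.

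**Figure D1:**
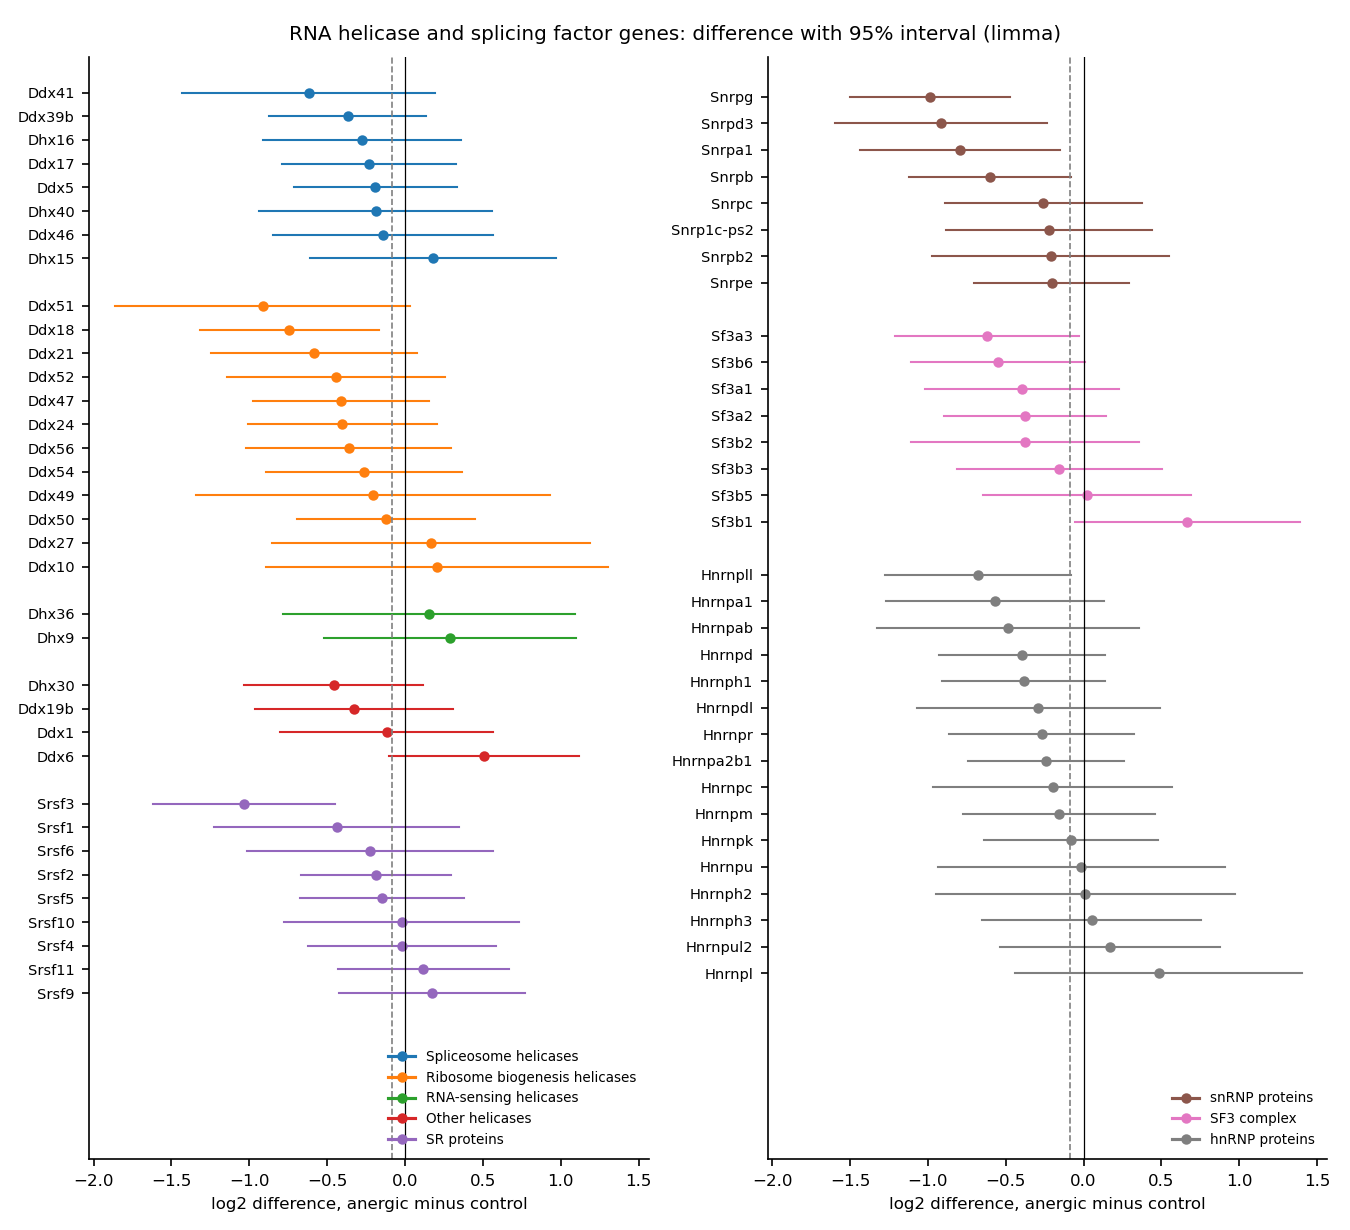
Log2 difference between anergic and control arrays (points) with the 95% interval from limma (lines) for the 67 genes above the filter, grouped by role. The dashed line marks the median of all genes tested, -0.085, and 53 of the points lie below 0.

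The size of this lean depended on the scale and on single arrays. Centring each array on its median moved the median of all genes from -0.085 to 0.0214 and that of the 67 from -0.232 to -0.125. It shifts the difference of every gene by the same amount, so the distance between the medians, -0.147, could not change. After centring, 49 of the 67 were negative (73.1%, against 47.7% of all genes), but the count with both anergic arrays below both controls fell to 15 (22.4%, against 16.4% of all genes), and 2 in place of 8 had an unadjusted p under 0.05. Quantile normalization kept the lean, with 50 of the 67 negative (74.6%, against 53.1% of all genes), 29 with both anergic arrays below both controls (43.3%, against 22.5%), 10 at an unadjusted p under 0.05 and a distance of -0.221 between the medians. The share of all genes at an unadjusted p under 0.05 is given on the deposited scale alone, so the counts of 2 and 10 have no share beside them. Over all genes, 74 were called higher and 47 lower on the deposited scale, 46 and 13 after centring, and 65 and 32 under quantile normalization. The distance between the medians of the 67 and of all genes was -0.0394 without anergic array 2 and -0.0941 without control array 1, but -0.312 without control array 2 and -0.337 without anergic array 1. The share of negative signs was also set beside brightness. With all genes cut into 4 equal classes of brightness, 49.9% of the brightest class were negative, with a median of 0.00105, while 19 of the 22 members there were negative, with a median of -0.227. In the next class 22 of 26 members were negative, against 57.2% of all genes, and in the 2 dimmer classes 8 of 13 and 4 of 6, against 62.4% and 62.9%.

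The typical gap between arrays of a group was about as large as the differences studied, with medians over the 67 genes of 0.266 for the control pair of arrays and 0.324 for the anergic pair, against a median absolute difference between groups of 0.269. The difference exceeded both gaps in 26 of the 67 (38.8%), against 30.4% of all genes. Array 1 was above array 2 in 43 of the 67 (64.2%) in control cells and in 47 (70.1%) in anergic cells, where all genes gave 41.8% and 42.6%. Control array 2 also stood apart in its 9 spike-in probe sets, with a geometric mean of 1972 against 870.4 to 1014 on the others, and the part of this in the results was not tested.

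The promoter sequences of these genes were searched for short motifs, which the choice of names did not use. RefSeq windows (GRCm38.p6, 250 bases before to 50 after the start) were found for 64 of the 70 genes, 83 windows in all, and were searched on both strands for CCGGAAG, the core bound by ETS factors. It was present in 32 of the 83 windows (38.6%), against 18.0% of the windows of tested genes and 8.86% of all windows. Counted per gene, 28 of 61 tested members held it (45.9%), against 21.4% of 4526 tested genes. It was found in 6 of 7 SF3 genes, 4 of 6 snRNP genes, 6 of 12 ribosome biogenesis helicases and 4 of 8 spliceosome helicases, but in 3 of 9 SR genes and 1 of 14 hnRNP genes. The median difference was -0.222 in members with it and -0.269 in those without. CACGTG, the E-box of Myc, was in 8.43% of member windows and 10.3% of those of tested genes. The letters CCAAT gave 45.8% and 37.1%, GGGCGG, the GC box, 65.1% and 61.6%, and TATAAA 10.8% and 8.16%. A match is a description of letters and no evidence of binding.

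Parts of 4 of these windows, 150 bases before to 30 after the start, are shown for 4 of the 8 genes with an unadjusted p under 0.05, each from another role: the Sm protein gene Snrpg (chr6:86371390-86371569, plus strand), the SF3 gene Sf3a3 (chr4:124714711-124714890, plus strand), the SR gene Srsf3 (chr17:29032510-29032689, plus strand) and the helicase gene Ddx18 (chr1:121567951-121568130, minus strand). Capitals mark the letters found, on either strand. In Snrpg these are CCGGAAG at position -145 and CCAAT, reversed, at -66, the position being that of the first letter counted from the start. Sf3a3 has CCGGAAG, reversed, at -90. Srsf3 has CCAAT, reversed, at -58 and TATAAA at -18, and Ddx18 has GGGCGG, reversed, at -6 and 10.
Snrpg: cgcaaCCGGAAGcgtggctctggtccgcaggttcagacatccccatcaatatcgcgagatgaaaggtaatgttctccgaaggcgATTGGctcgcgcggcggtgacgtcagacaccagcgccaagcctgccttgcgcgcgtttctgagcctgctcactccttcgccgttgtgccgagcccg
Sf3a3: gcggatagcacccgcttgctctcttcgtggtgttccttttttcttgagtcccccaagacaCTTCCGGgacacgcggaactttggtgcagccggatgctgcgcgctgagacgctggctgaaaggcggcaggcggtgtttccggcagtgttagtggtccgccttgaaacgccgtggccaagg
Srsf3: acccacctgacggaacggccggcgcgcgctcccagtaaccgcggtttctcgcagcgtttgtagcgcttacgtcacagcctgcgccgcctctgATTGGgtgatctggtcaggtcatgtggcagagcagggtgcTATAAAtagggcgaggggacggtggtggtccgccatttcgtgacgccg
Ddx18: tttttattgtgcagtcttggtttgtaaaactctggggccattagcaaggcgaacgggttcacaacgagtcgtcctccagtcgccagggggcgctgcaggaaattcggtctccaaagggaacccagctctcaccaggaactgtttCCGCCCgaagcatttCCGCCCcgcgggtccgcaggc

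The snRNP genes were the group with the most negative differences, and all 8 had a negative sign. Their median was -0.431, against -0.085 for all genes, and 4 of the 8 had an unadjusted p under 0.05 with a lower value, where 6.39% of all genes did. In 5 of the 8 both anergic arrays were below both controls, against 24.0% of all genes, and 0 passed the adjusted threshold in limma. Genes of the Sm ring, the core shared by snRNPs other than that of U6, are Snrpg, Snrpd3, Snrpb and Snrpe here. All 4 were among the 5. Snrpg, which encodes a small Sm protein, was at 4805.2 and 4042.3 on the control arrays and at 2321.5 and 2108.8 on the anergic arrays. Its log2 difference was -0.98 ± 0.23 (SE), a 1.98-fold lower value that had the lowest adjusted p of all members and missed the threshold (limma, adjusted p = 0.0664). Under quantile normalization it passed (-1.04, adjusted p = 0.0458), and after centring it did not (-0.88, adjusted p = 0.482). With 1 array left out, where the single array of that group is assumed to vary like the other group, its limma adjusted p was 0.00603 without control array 2, 0.0657 without control array 1, 0.377 without anergic array 1 and 0.439 without anergic array 2. Without the intensity trend it was 0.244.

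Snrpd3 was at 1301.1 and 804.0 in control and at 543.1 and 516.3 in anergic cells, so that the anergic arrays lay close together and the control arrays apart. The log2 difference was -0.91 ± 0.30 (SE; limma, adjusted p = 0.213). Snrpb, which encodes the SmB protein, was at 9053.5 and 11870.5 in control and at 6322.6 and 7362.5 in anergic cells (-0.60 ± 0.23; adjusted p = 0.306). Snrpe differed least among the Sm genes, from 4463.2 and 4288.0 to 4071.5 and 3532.5 (-0.20, 95% interval -0.702 to 0.293).

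Proteins specific to one snRNP varied. Snrpa1, encoding the U2 protein that binds the U2 RNA together with the product of Snrpb2, was at 782.2 and 910.6 in control and at 546.3 and 412.2 in anergic cells (-0.79 ± 0.29, SE; limma, adjusted p = 0.267). The groups did not overlap for Snrpa1. For its partner Snrpb2 they did, with 358.5 and 329.1 against 357.0 and 239.0 (-0.21, 95% interval -0.972 to 0.549). Snrpc, of the U1 snRNP, gave 1485.6 and 1004.6 against 1123.7 and 918.5 (-0.26), with overlap. The last of the 8, Snrp1c-ps2 (-0.22), is listed as a pseudogene in RefSeq, and its probe set is of a kind whose probes can be shared with related sequences.

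SR protein genes were led by Srsf3. Srsf3, which encodes a small SR protein that acts in splicing and mRNA export, was at 1430.8 and 1369.9 in control and at 749.1 and 596.7 in anergic cells, a clear gap between tight groups. The log2 difference was -1.03 ± 0.26 (SE; limma, adjusted p = 0.0899), the most negative of all 67, a 2.05-fold lower value. Its probe set (suffix f) is of the kind with probes shared within a sequence family, and its other probe set was below the filter (-0.16, with values from 53.5 to 75.1). The remaining 8 SR genes lay between -0.44 and 0.17. Srsf2, a regulator that binds exonic enhancers, was steady on the control arrays at 5428.2 and 5413.9 and stood at 4954.4 and 4577.4 on the anergic ones (-0.19, 95% interval -0.669 to 0.298). Its other tested probe set gave -0.55. Srsf5 gave 5047.9 and 6370.9 against 5651.5 and 4625.0, with overlapping groups (-0.15). For Srsf1, the founding member of the family, the 2 tested probe sets disagreed, at -0.44 and 0.26. Srsf9 had the highest difference of the group (0.17) and also overlapped, as did Srsf6, Srsf10, Srsf11 and Srsf4.

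In the SF3 complex, 6 of 8 genes were negative (58.1% of all genes were) and Sf3b1 was the exception in size. The SF3a subunits all leaned down: Sf3a3 was at 928.2 and 939.4 in control and at 558.6 and 638.8 in anergic cells (-0.62 ± 0.27, SE; limma, adjusted p = 0.369). Sf3a1 (-0.40) and Sf3a2 (-0.38) also had both anergic arrays below both controls, but the other probe set of Sf3a2 gave 0.05. Sf3b6, the subunit that contacts the branch point adenosine, was at 3012.3 and 2409.8 against 2067.1 and 1620.4 (-0.55 ± 0.25; adjusted p = 0.402). Sf3b1, the large scaffold of SF3b, was at 1053.7 and 1481.0 in control and at 2701.9 and 1480.4 in anergic cells. Its difference of 0.67 was the highest of the 67 (adjusted p = 0.447), with anergic array 1 high and anergic array 2 level with control array 2. Its other probe set gave 1264.0 and 1349.4 against 1537.0 and 1100.3 (-0.01). Sf3b2 (-0.38), Sf3b3 (-0.16) and Sf3b5 (0.02) overlapped between groups.

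Among the hnRNP genes, Hnrnpll had the most negative difference. Hnrnpll encodes a regulator of CD45 exon skipping in activated T cells, and was at 1510.3 and 1934.3 in control and at 924.4 and 1209.1 in anergic cells. The log2 difference was -0.68 ± 0.27 (SE; limma, adjusted p = 0.314), with no overlap between the groups. Its paralog Hnrnpl, which acts on the same exons, leaned the other way: 1017.1 and 492.9 in control against 1434.4 and 699.1 in anergic cells (0.48 ± 0.41; adjusted p = 0.736). In Hnrnpl array 1 was far above array 2 in both groups, so the groups overlapped. The difference between the paralogs was not tested.

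Of the other hnRNP genes, Hnrnpa1, a splicing repressor, was at 442.7 and 404.0 against 279.9 and 270.7 (-0.57 ± 0.31, SE; limma, adjusted p = 0.519). Hnrnpd, also known as AUF1 and tied to decay of AU-rich mRNAs, went from 2141.0 and 2275.7 to 1833.8 and 1526.4 (-0.39). Hnrnph1 (-0.38) and Hnrnpa2b1 (-0.24) likewise had both anergic arrays below both controls, and so did Hnrnpr (-0.27). In the other tested probe set of Hnrnpa2b1 the groups overlapped (-0.02). The other 9 overlapped, from Hnrnpab at -0.49 through Hnrnpdl, Hnrnpc, Hnrnpm, Hnrnpk, Hnrnpu, Hnrnph2 and Hnrnph3 to Hnrnpul2 at 0.17. Hnrnpdl showed how far probe sets can differ, with -0.29 at its brightest and -1.05 at its next. In the latter the groups did not overlap (764.0 and 504.5 against 340.7 and 237.9). Over the 16 genes the median was -0.22 (all genes -0.085), and 12 were negative (58.1% of all genes were). Of the 16, 0 passed, where 1.33% of all genes were called higher and 0.842% lower.

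**Figure D2:**
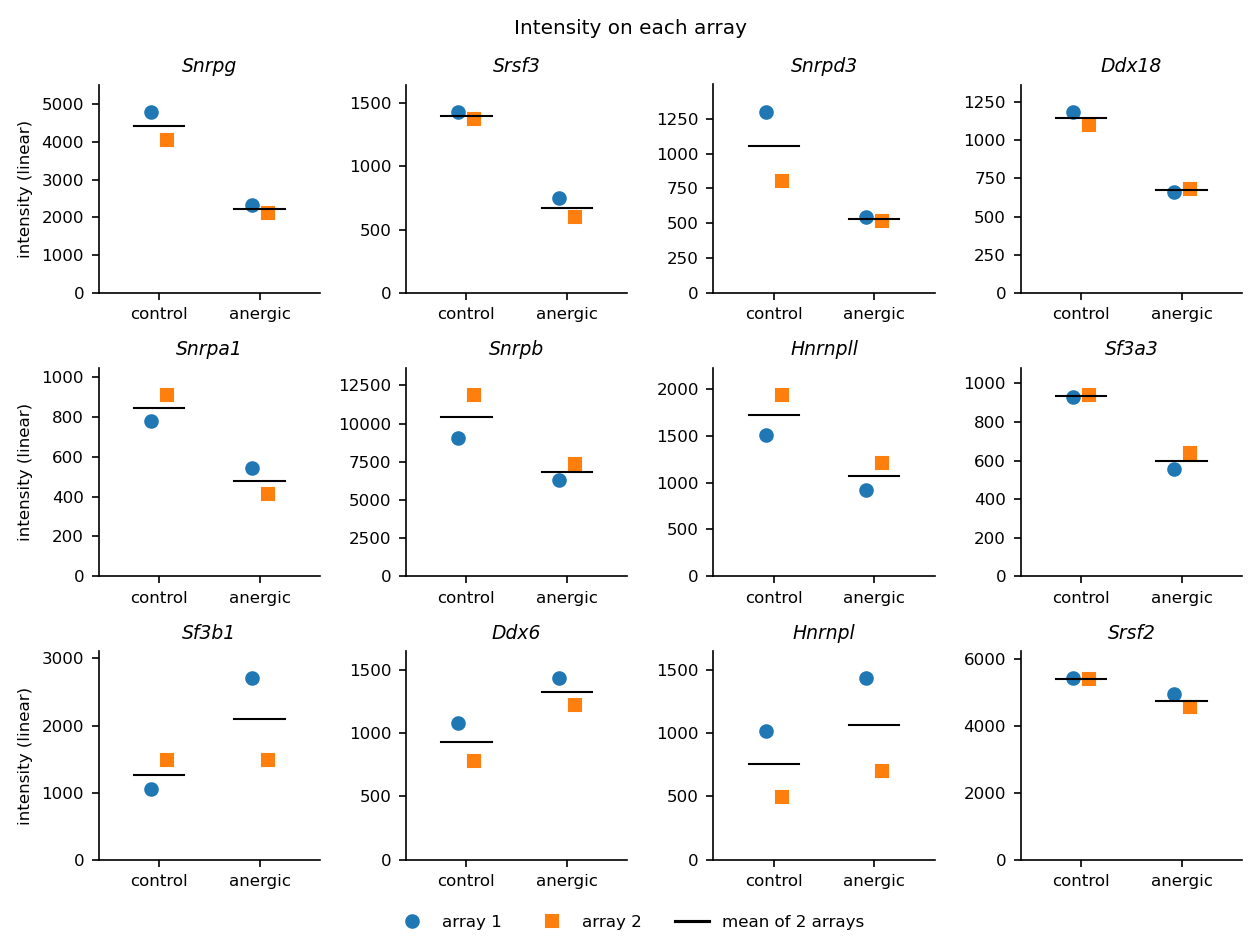
Linear intensity on each of the 4 arrays (circles, arrays numbered 1; squares, arrays numbered 2; bars, mean of the 2 arrays of a group) for 12 genes, each with its own axis from 0. In the 8 genes of the first 2 rows and in Srsf2 the anergic arrays lie below both controls, in Ddx6 above them, and in Sf3b1 and Hnrnpl the groups overlap.

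Helicases of ribosome biogenesis, which work in the nucleolus on precursor rRNA, were negative in 10 of 12 (58.1% of all genes were), with a median of -0.383 (all genes -0.085). Both anergic arrays were below both controls in 8 of the 12, against 24.0% of all genes. Ddx18 was at 1186.8 and 1098.5 in control and at 662.2 and 679.9 in anergic cells (-0.74 ± 0.26, SE; limma, adjusted p = 0.238), and its other probe set, from 733.9 and 706.2 to 280.4 and 488.7, gave -0.90. Ddx51, which acts on the large ribosomal subunit, was at 335.5 and 202.3 against 155.4 and 99.5 (-0.91 ± 0.42; adjusted p = 0.419), and its difference was -0.59 without control array 1 and -1.24 without control array 2. Ddx21, which couples rRNA transcription and processing, was at 662.6 and 946.2 against 479.0 and 560.9 (-0.59 ± 0.30; adjusted p = 0.478). Ddx47 (-0.41), Ddx24 (-0.40), Ddx52 (-0.44), Ddx56 (-0.36) and Ddx54 (-0.26) were lower without overlap. The dim second probe set of Ddx24 gave 0.07, however, and the second of Ddx47 overlapped (-0.16). Ddx50, the paralog of Ddx21, had overlapping groups and probe sets at -0.12, 0.19 and 0.88. Ddx49 (-0.20), Ddx27 (0.16) and Ddx10 (0.21) overlapped.

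Helicases of the spliceosome were negative in 7 of 8 (58.1% of all genes were), with a median of -0.211 (all genes -0.085). At an unadjusted p under 0.05 in limma 0 of the 8 were lower, against 6.39% of all genes, and 0 higher, against 6.32%. In 8 genes a count of 0 cannot be told apart from these shares. Ddx39b, an ATPase of early spliceosome assembly and of mRNA export, was at 2782.5 and 2964.0 in control and at 2288.0 and 2149.5 in anergic cells (-0.37 ± 0.23, SE; limma, adjusted p = 0.586). Ddx41 went from 289.6 and 262.3 to 185.6 and 154.5 (-0.62 ± 0.36; adjusted p = 0.563). Both had anergic arrays below controls, as did Dhx40 (-0.19). The paralogs Ddx5 and Ddx17, splicing and transcription cofactors, overlapped between groups: Ddx5 gave 2460.4 and 2821.7 against 2472.9 and 2150.5 (-0.19, 95% interval -0.713 to 0.333), and Ddx17 gave -0.23. Dhx16 (-0.27) and Ddx46 (-0.14) also overlapped, and so did Dhx15 (0.18), the helicase that takes the spent spliceosome apart.

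The members placed among RNA-sensing helicases, Dhx9 and Dhx36, were both positive without passing. Dhx9 was at 314.8 and 301.3 in control and at 518.0 and 281.0 in anergic cells, so its difference (0.29, 95% interval -0.52 to 1.10) lay on anergic array 1. Dhx36, which unwinds G-quadruplexes, gave 0.16 with overlap. Ddx6, a helicase of translational repression and mRNA decay, was at 1082.6 and 781.7 in control and at 1430.4 and 1220.2 in anergic cells (0.51 ± 0.27, SE; limma, adjusted p = 0.508). On the deposited scale it was the single gene of the 67 with both anergic arrays above both controls. The count was 3 after centring (4.48%, against 20.3% of all genes) and 2 under quantile normalization (2.99%, against 20%). The other probe sets of Ddx6 gave 1.06 and -0.04. Dhx30, tied to mitochondrial RNA, went from 1081.1 and 975.0 to 747.1 and 731.3 (-0.46), and Ddx19b, an mRNA export factor at the nuclear pore, gave -0.33, both without overlap. Ddx1, of the tRNA ligase complex, overlapped (-0.12), but its other tested probe set did not (-0.49). The 3 genes below the filter were the germline helicase Ddx4 (6.0 to 66.9 on the 4 arrays), the testis helicase Ddx25 (35.7 to 74.4) and Dhx32 (16.4 to 29.9).

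Where a gene had several probe sets, they agreed in part. In 18 genes at least 2 probe sets were tested, and in 11 of these every one lay on the same side of 0. The 7 others were Ddx6, Ddx24, Ddx50, Sf3a2, Sf3b1, Srsf1 and Srsf4. Over the 87 tested probe sets of the members, 0 passed when all probe sets were adjusted together (limma, lowest adjusted p = 0.102). The share of all probe sets called in that fit is not given, so this 0 is not read as a result about the members. Of the 67 gene values, 11 came from probe sets with a suffix for a departure from the usual choice of probes (5 f, 2 s, 3 r and 1 i). Among those with suffix f are Srsf3, Snrpe and Sf3a2, so signal of related sequences cannot be told apart from theirs. The value of Snrpb has suffix r, and whether its probes also detect related sequences was not tested.

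**Figure D3:**
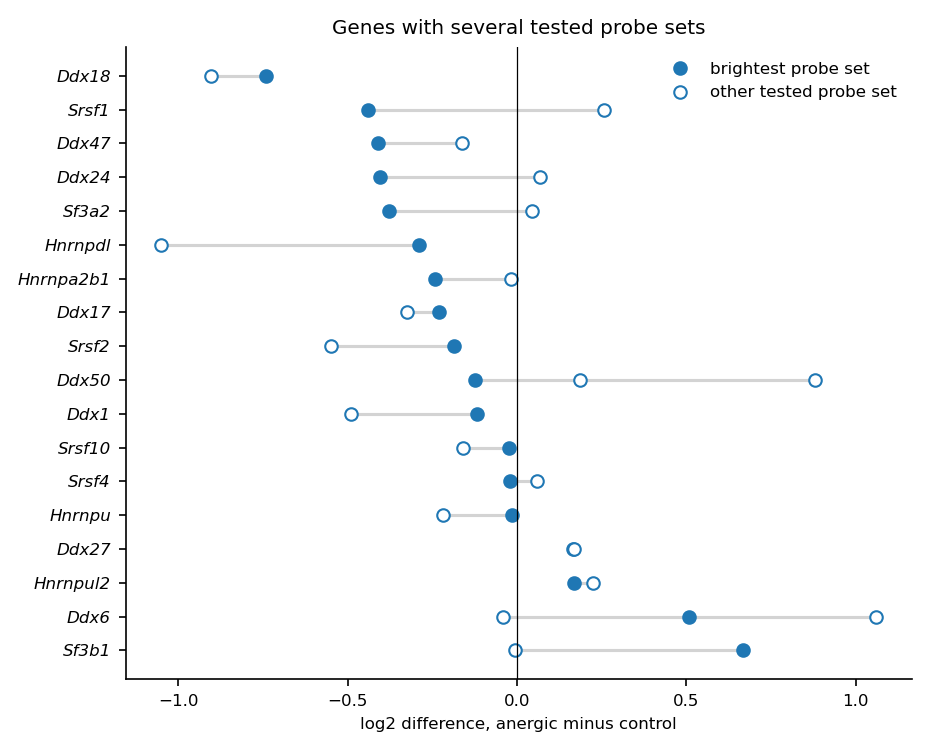
Log2 difference between anergic and control arrays for each tested probe set of the 18 genes with several (filled, the brightest, used as the gene's value; open, the others). Those of Ddx18 lie at -0.74 and -0.90, while those of Ddx50, Ddx6 and Sf3b1 spread across 0.

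In the rest of the RNA-processing machinery negative signs were also the larger part, and none of it passed. Lists of other spliceosome components, of splicing regulators with SR kinases, of cap, export, 3' end and exon junction factors, and of other helicases held 175 genes, of which 116 were tested, with 0 called in either direction. At an unadjusted p under 0.05 in limma 8 were lower (6.9%, near the 6.39% of all genes) and 0 were higher (6.32% of all genes were). Of the 116, 84 were negative (72.4%, against 58.1% of all genes), with a median of -0.233 (all genes -0.085). Both anergic arrays lay below both controls in 37 (31.9%, against 24.0% of all genes) and above them in 5 (4.31%, against 17.2%). The groups overlapped in 74 of the 116, and in 3281 of all 5583 genes. By list, with Aqr in 2 of them, the counts were 29 of 40 for spliceosome components, 29 of 43 for regulators, 18 of 22 for export and 3' end factors, and 9 of 12 for other helicases. Lsm7, of the Sm-like ring of the U6 snRNP, was at 1205.0 and 894.7 in control and at 631.4 and 380.3 in anergic cells (-1.04; adjusted p = 0.177 in limma). Coil, which encodes coilin of the Cajal body where snRNPs mature, gave -1.06 (adjusted p = 0.21), and the intron-binding helicase gene Aqr gave -0.84.

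The genes with the smallest p in each list are given as a description, since that choice favours groups that do not overlap. In 3' end processing these were Nudt21 (1136.1 and 1032.0 against 605.9 and 561.8, -0.86; limma, adjusted p = 0.169), Cstf2 (-0.91), Clp1 (-0.72) and Pcf11 (-0.73). Among regulators they were Tial1 (-0.59), Rbmx (-0.67), Tardbp (-0.51) and Clk2 (-0.40). Plrg1 of the spliceosome (-0.59), the antiviral sensor gene Ifih1 (-0.80) and the DNA helicase gene Blm (-0.92) were also among them, and Recql was the one with a positive difference (0.33).

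The arrays carried the markers of the cell they were labelled as. Of 10 listed T cell and Th1 markers 8 were measured, without Lck and Tbx21. Of these 7 were above the filter, with summed intensities of 27020 to 35510, and Cd5 was the dim one (19.8 to 130.5). Ifng was at 2131.9 and 2649.1 in control and at 3868.5 and 4864.3 in anergic cells, and Cxcr3 at 835.3 and 867.1 against 218.8 and 336.6. The filter also kept 4 of 6 B cell, 4 of 8 macrophage and dendritic cell and 3 of 10 granulocyte and mast cell markers. It kept 1 of 4 erythroid and platelet and 3 of 6 fibroblast markers, so passing it does not mark a cell type. Summed B cell markers (6 measured) were at 648.2 and 1050 in control and at 593.4 and 930 in anergic cells, and those of macrophages and dendritic cells (8 measured) at 1266 and 1666 against 1514 and 2025. Granulocyte and mast cell markers summed to 481.6 to 1113, erythroid and platelet markers to 170.8 to 515.8, and fibroblast markers to 8689 to 15180. Of the fibroblast markers, Thy1, which mouse T cells also express, made 7300.7 to 13440.1, Col1a2 1015.5 to 1584.4 and Col1a1 187.7 to 341.9. The macrophage markers did not move together: Cd68 was at 71.0 and 91.3 in control and at 497.6 and 531.5 in anergic cells, Lyz2 at 129.1 and 73.3 against 11.7 and 11.4, and Cd14 at 764.1 and 931.9 against 684.4 and 858.2. Adgre1 (20.2 to 36.9) and Marco (5.2 to 19.3) were low on all 4 arrays. The part of such cells in the differences was not tested, and in RNA from whole cultures fewer cells of a kind and less RNA per cell cannot be told apart.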

How the data were processed

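The deposited intensities, 12488 per array on 4 arrays, were on a linear scale and already scaled by the authors, as the values show; for scanner software and probe set summary, the sources used here say nothing. Biotin-labelled cRNA was made from about 8 µg of total RNA, per the labels' protocols. Symbols came from GEO's platform annotation, and all 70 matched RefSeq (GRCm38.p6) by gene ID with the same symbol.

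The 66 control probe sets were left out. Values were taken as log2(intensity + 29.15), the median over arrays of the 20th percentile, which understates differences of dim genes. A gene's value was its probe set with the highest mean intensity. All 5583 genes above the filter were fitted together with limma 3.58.1 in R 4.3.3 (intensity trend, two-sided) and adjusted with the Benjamini-Hochberg method at 0.05. Each fit had 2 residual and 7.76 prior degrees of freedom. An exact permutation test of 2 against 2 arrays cannot go below 0.333. The fit was tested on simulated data. Intervals are 95% intervals from the same fit. Precision is limited by the 2 arrays per group.

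Genes were named by a fixed rule: any called; up to 4 of each role and list with the smallest p; those whose probe sets disagree in sign; and a fixed set, of which Snrpd1 and Snrpa had no probe set under that symbol alone. Other genes named with values were added after these were seen. The members and lists were chosen with earlier results of these data known. Alternatives covered the scale, pseudocount, filter, probe set choice, trend, array number as a block and each array left out.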

Additional observations from a re-analysis of the deposited data

How the results depend on the processing

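The count of 0 members called higher held in every alternative run: centring, quantile normalization, both pseudocounts, both filters, both probe set rules, no intensity trend, the block and each array left out. Without control array 1 and control array 2 in turn, the log2 difference was -0.796 and -0.407 for Snrpb, -0.577 and -1.25 for Snrpd3, and -0.861 and -1.11 for Snrpg. The count of members called lower was 1 under quantile normalization (Snrpg), in a fit that called 32 of 5583 genes lower. With the array number as a replicate block it was 8 (Snrpg, Srsf3, Snrpd3, Ddx18, Snrpa1, Hnrnpll, Snrpb and Ddx51), in a fit that called 354 genes higher and 366 lower overall. The labels do not say that the numbers pair arrays; deviations of same-numbered arrays from their group means correlated across genes (r = 0.523). The members' median stayed negative, from -0.125 (centring) to -0.337, and between 47 and 58 were negative.

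Some members changed sign without passing. Srsf4 was at 0.0868 with centring, 0.0276 with quantile normalization and 0.0204 with the mean of probe sets. Ddx50 was at 0.315 with the mean of probe sets. With each array left out in turn, the log2 difference ranged from -0.425 to 0.188 for Ddx1, -0.503 to 0.04 for Ddx17, -0.34 to 0.0932 for Ddx50, -0.12 to 0.476 for Dhx15, -0.329 to 0.641 for Dhx36, -0.12 to 0.699 for Dhx9, -0.0212 to 0.986 for Hnrnpl, -0.189 to 0.149 for Srsf4, -0.316 to 0.0183 for Srsf5 and -0.0981 to 0.444 for Srsf9. The cause was not tested. The 2 arrays per group set the precision, and no depth is defined for intensities.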
